A study of Mus musculus with 23 samples.

Results

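The comparison described here is the difference between the response of mouse colon to bile salt hydrolase (BSH) at 12 weeks and its response at 2 weeks. It was taken as the effect of BF BSHhigh over BF BSHlow in non-tumor colon after 12 weeks minus the same effect in normal colon after 2 weeks, and it used 16 of the 23 libraries of the series, 4 in each of 4 groups. All mice were male Cdx2Apcf/w on C57BL/6, 6 to 8 weeks old at the start, and all were fed a 60% high-fat diet (HFD). The BF BSHlow groups were colonized with BF638R bsh-, which is Bacteroides fragilis 638R with an empty vector, and the BF BSHhigh groups with BF638R bsh+, the same strain carrying a bsh gene from another B. fragilis strain. Colonization lasted 2 weeks (groups 2w_bsh- and 2w_bsh+, labelled normal colon) or 12 weeks (groups 12w_bsh-_NT and 12w_bsh+_NT, labelled non-tumor tissue). Cre was driven by the Cdx2 promoter and 1 of the 2 Apc alleles was floxed, so every group carried the same Apc lesion in Cdx2-expressing cells, and the altered gene itself is bacterial and was not measured. The labels do not say whether the 4 libraries of a group came from separate mice, so the p-values measure the spread between libraries, which may be technical in part.

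BSH removes the glycine or taurine from bile acids conjugated in the liver, which opens them to further conversion by gut bacteria. Unconjugated and secondary bile acids act on epithelial and immune cells through membrane and nuclear receptors, and at high levels they are known to damage the mucosa. The epithelium answers microbial and bile acid cues with mucus from goblet cells, secreted antibacterial lectins, oxidants and interferon-stimulated genes, and the question of this comparison is which of these responses to BF BSHhigh were seen at 1 time, and which at both.

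The libraries held 12401388 to 17103225 expected counts (median 15560392), and 15532 of 55450 genes passed the filter on low counts. Time accounted for most of the variation. Pooled over all genes tested, it took 66.5% of the variance, against 2.93% for BSH and 2.67% for the interaction of BSH with time. Any split of the libraries takes some share, and the share of a random split was not computed. The 2 small shares therefore do not show an effect. The 2 settings also differed in markers of position and muscle. Summed levels of distal colon position genes (the posterior Hox genes among them) ran from 6.27 to 86.2 CPM (counts scaled to a common library size, TMM-adjusted) at 2 weeks and from 387.7 to 751.3 CPM at 12 weeks. Those of smooth muscle genes ran from 159.7 to 357.5 CPM at 2 weeks and from 1805 to 9522 CPM at 12 weeks. Slc10a2, the apical bile acid transporter known from ileum, lay between 207 and 881 CPM at 2 weeks and between 2.20 and 20.4 CPM at 12 weeks. Treatment time, age at the end, tissue label, position and muscle content therefore cannot be told apart in any difference between the times. In bulk tissue, fewer cells of a type and less RNA per cell cannot be told apart either.

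No gene passed edgeR's quasi-likelihood test of the interaction itself, so by that test no gene was shown to respond at 1 time and not at the other. The smallest adjusted p was 0.113, reached by Reg4, Gm1965 and Gm17322. At an unadjusted p under 0.05, 710 genes (4.57% of those tested) had a more positive BSH effect at 12 weeks than at 2 weeks and 425 genes (2.74%) a more negative one. With an absolute log2 difference over 1 as well, these were 222 genes (1.43%) and 153 genes (0.985%). Of the 222, 205 had effects of opposite sign at the 2 times, as had 133 of the 153. Picking genes for a large difference favors opposite signs, so these counts are no separate result. Among all 15532 genes, 3801 had a negative effect at 2 weeks and a positive one at 12 weeks, and 3697 the reverse. The test could see only large differences, since the median gene had a standard error (SE) of 0.244 log2 units and a 95% interval reaching 0.519 to either side. DESeq2 called 26 genes, 18 higher and 8 lower, among them Reg4, A4gnt, Slco4a1, Ffar2, Car12, Spink4, Ly6g, Atp12a, Fxyd4 and Tgm3.

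The single effects were as sparse. At 2 weeks, 1 gene rose (0.00644% of those tested), Ly6g, and 1 gene fell (0.00644%), Reg4, each with an adjusted p of 0.0432. At 12 weeks, 1 gene rose (0.00644%), the unnamed gene model Gm1965 (log2 fold change 1.74, SE 0.25, adjusted p = 0.0475). These calls were fragile: with 1 library left out, the 2-week count was 0 to 46 and the 12-week count 0 to 7, and both were 0 without any single BF BSHhigh library at 12 weeks or BF BSHlow library 1, 2 or 3 at 2 weeks. Averaged over both times no gene passed, the smallest adjusted p being 0.0758. At that average, 770 genes (4.96%) were higher and 518 (3.34%) lower at an unadjusted p under 0.05. Across the 15532 genes the 2 effects had r = -3.26e-05 and rho = 0.0352, and across the 9225 genes with a mean of at least 10 CPM r = 0.0864 and rho = 0.0561. These values describe genes, which are not independent replicates.

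**Figure D1:**
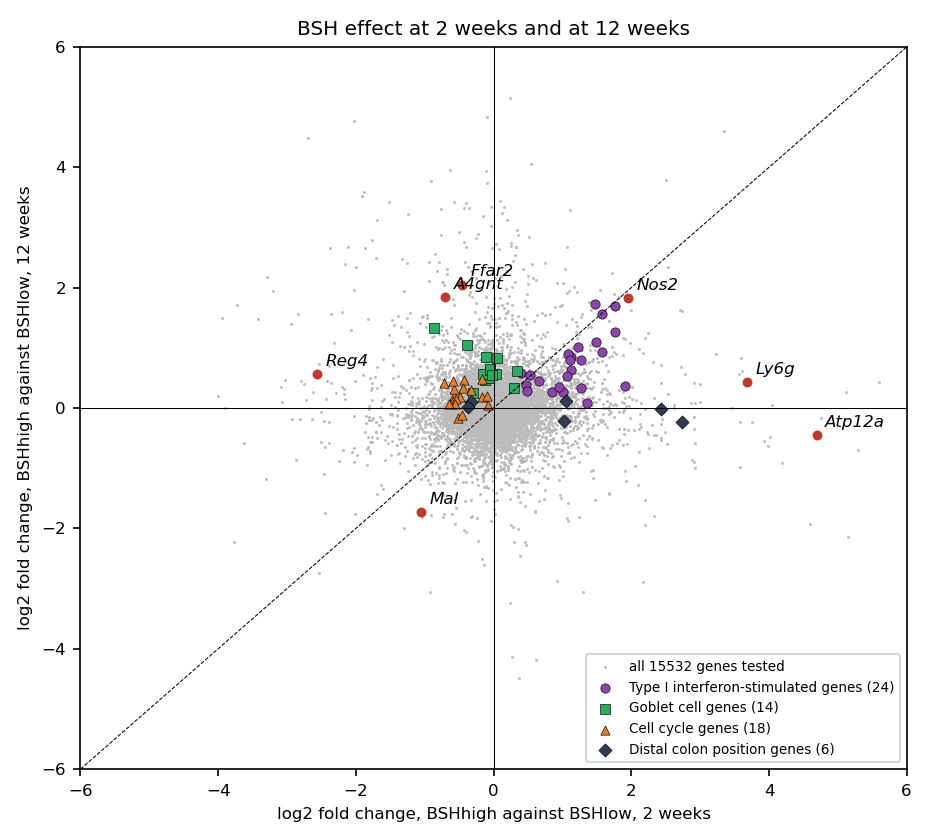
BSH effect at 12 weeks (y axis, log2 fold change of BF BSHhigh over BF BSHlow) against the effect at 2 weeks (x axis, same scale), with a gray point per gene tested, colored symbols for 4 gene lists, labels for named genes and a dashed line of equal effects. The axes end at 6 log2 units, with 7 genes outside. The cloud has no slope (r = -3.26e-05), Reg4 lies far to the left, Ly6g and Atp12a far to the right, and Nos2 in the upper right.

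Reg4, a lectin of the Reg family made by secretory cells of the epithelium (ENSMUSG00000027876.4, chr3:98222156-98236748 of mm10, plus strand), had effects on opposite sides of 0 at the 2 times. At 2 weeks the BF BSHlow libraries had 177, 357, 456 and 193 CPM and the BF BSHhigh libraries 23.4, 73.3, 63.8 and 39.4 CPM. At 12 weeks they had 379, 369, 326 and 318 CPM and 282, 792, 482 and 501 CPM. All 4 BF BSHhigh libraries were below all BF BSHlow libraries at 2 weeks, and at 12 weeks the groups overlapped. Reg4 fell by 2.56 on the log2 scale at 2 weeks (SE 0.38) and was 0.56 higher at 12 weeks (SE 0.36), a difference of 3.13 (SE 0.52, 95% interval 2.02 to 4.24, adjusted p = 0.113). Over all alternatives that difference lay between 2.84 and 3.37.

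Several other epithelial genes had the same shape, lower or level with BF BSHhigh at 2 weeks and higher at 12 weeks. A4gnt, the transferase that caps gastric-type mucin sugars (ENSMUSG00000037953.7, chr9:99612502-99622367, plus strand), had 33.0, 42.5, 40.3 and 34.2 CPM in BF BSHlow and 19.4, 15.3, 39.98 and 17.6 CPM in BF BSHhigh colon at 2 weeks. At 12 weeks it had 3.67, 4.51, 2.65 and 1.42 CPM against 11.9, 9.73, 7.86 and 14.7 CPM. The 12-week groups were apart, while at 2 weeks 1 BF BSHhigh library sat among the BF BSHlow ones, and the effects differed by 2.54 on the log2 scale (SE 0.46, adjusted p = 0.178). Car12, a membrane carbonic anhydrase, had 115, 117, 225 and 120 CPM against 76.7, 92.1, 81.6 and 82.4 CPM at 2 weeks. At 12 weeks it had 4.49, 2.80, 1.85 and 4.79 CPM against 13.5, 6.60, 5.84 and 6.45 CPM. Its groups did not overlap at either time, lower at 2 weeks and higher at 12 weeks, with a difference of 2.02 (SE 0.43, adjusted p = 0.3). Slco4a1, an organic anion transporter, did the same on a lower level, from 9.30 ± 1.42 CPM to 6.91 ± 1.09 CPM at 2 weeks and from 1.28 ± 0.395 CPM to 3.10 ± 0.719 CPM at 12 weeks (SD, n = 4 libraries in each group). Its effects differed by 1.71 (SE 0.33, adjusted p = 0.247).

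Genes of this shape whose groups did not overlap at either time numbered 8 (0.0515% of those tested). They were Car12, Slco4a1, Smim3, the zinc transporter Slc30a7, the Golgi protein Gopc and the gene models 4933431E20Rik, Gm43305 and Gm49320, the last 5 named after their values were seen. The reverse, higher at 2 weeks and lower at 12 weeks without overlap, held for 4 genes (0.0258%), among them Gm17322 and the ubiquitin ligases Nhlrc1 and Znrf1, the last 2 named after their values were seen. At 2 weeks alone, 1.78% of genes were lower and 1.75% higher without overlap. At 12 weeks alone, 3.24% were higher and 2.0% lower. Whether the counts of 8 and 4 exceed what these shares give together was not tested.

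Ffar2, a receptor for short-chain fatty acids from bacterial fermentation, was 2.05 higher on the log2 scale with BF BSHhigh at 12 weeks (SE 0.38, adjusted p = 0.118). Its BF BSHlow libraries there had 6.06, 2.85, 1.97 and 3.90 CPM and its BF BSHhigh libraries 24.7, 16.96, 8.70 and 10.6 CPM. At 2 weeks the same groups had 11.9, 19.1, 17.9 and 14.7 CPM and 12.8, 8.04, 17.9 and 7.78 CPM. The groups were apart at 12 weeks and overlapped at 2 weeks, and the effects differed by 2.50 (SE 0.53, adjusted p = 0.3). The solute carriers Slc12a8 (difference 1.14, SE 0.26) and Slc2a10 (1.15, SE 0.27), and the potassium channel gene Kcnma1 (1.08, SE 0.26), were lower at 2 weeks and higher at 12 weeks by their fitted values, with adjusted p of 0.331, 0.37 and 0.37.

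**Figure D2:**
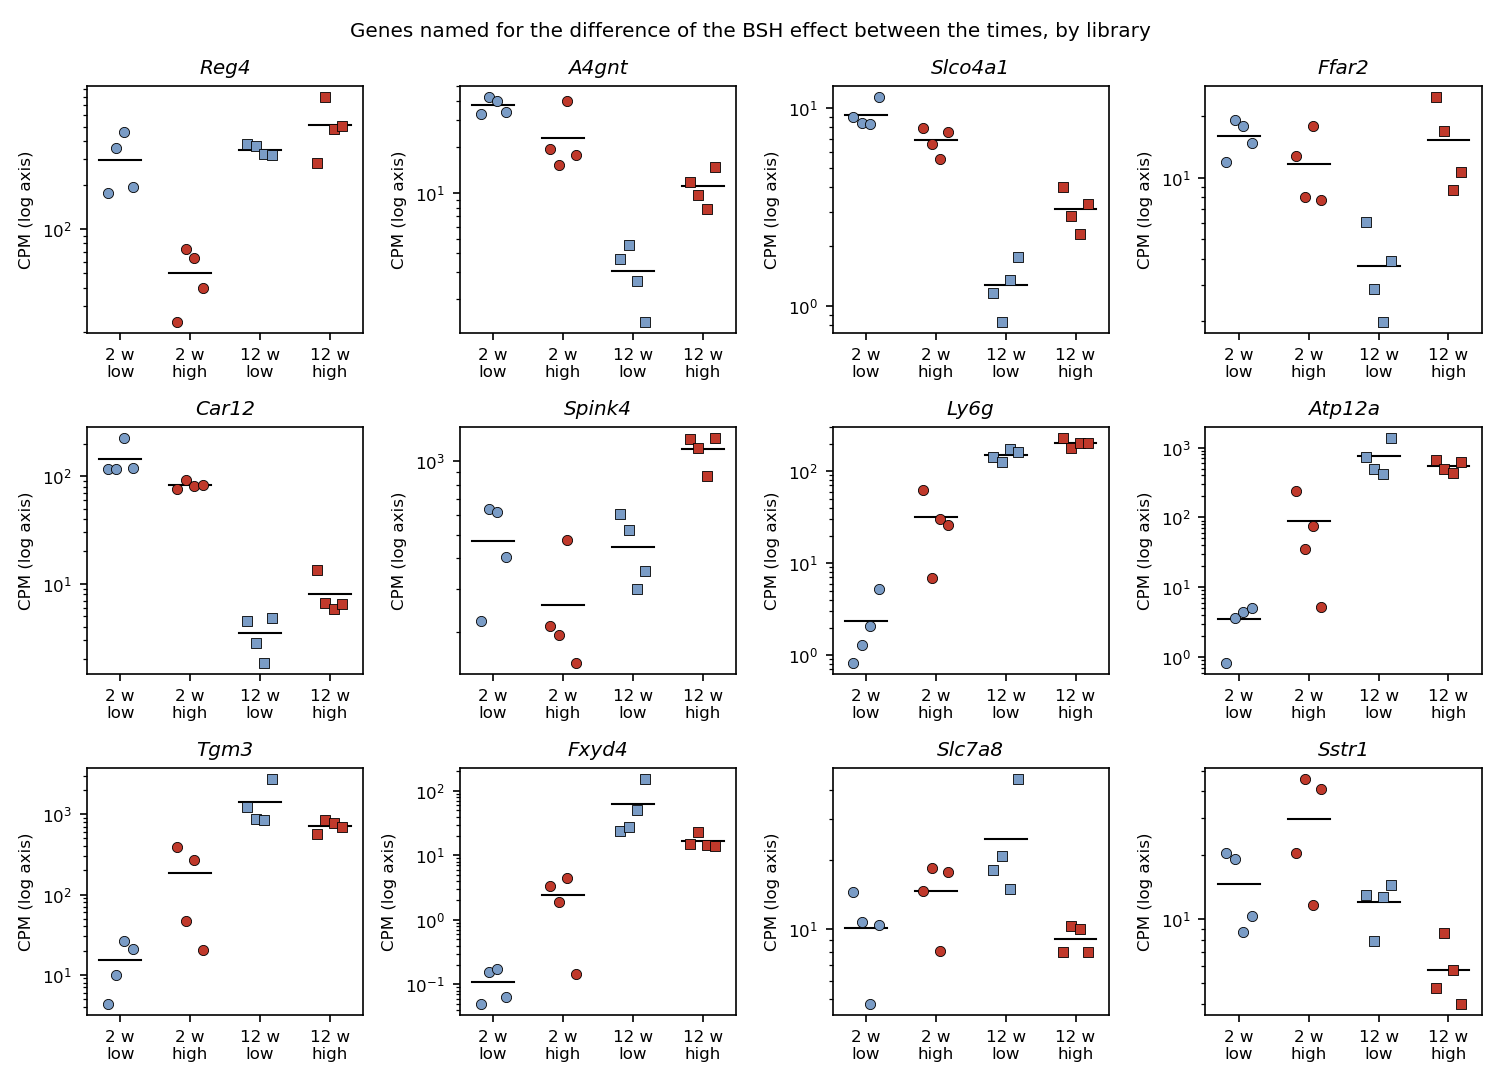
Level (CPM, log axis) of the genes named for the difference of the BSH effect between the times, in each of the 16 libraries, with circles for 2 weeks, squares for 12 weeks, blue for BF BSHlow, red for BF BSHhigh and a line at each group mean. Values under 0.05 CPM are drawn at 0.05. Reg4 is lower in all 4 BF BSHhigh libraries at 2 weeks and not at 12 weeks, and Ly6g and Atp12a reach at most 5.30 CPM and 4.98 CPM in the BF BSHlow libraries at 2 weeks.

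Of the genes named for the opposite shape, higher with BF BSHhigh at 2 weeks, Ly6g, Atp12a, Fxyd4 and Casp14 were low in BF BSHlow colon at 2 weeks and abundant at 12 weeks. Ly6g is best known as a neutrophil surface antigen (ENSMUSG00000022582.4, chr15:75155240-75159126, plus strand). It had 0.827, 1.30, 2.09 and 5.30 CPM in BF BSHlow and 62.5, 6.91, 30.6 and 26.2 CPM in BF BSHhigh colon at 2 weeks, and 143, 126, 173 and 161 CPM against 228, 178, 201 and 203 CPM at 12 weeks. Its groups did not overlap at either time, but the effect was 3.69 on the log2 scale at 2 weeks (SE 0.56) and 0.43 at 12 weeks (SE 0.44), a difference of -3.26 (SE 0.71, adjusted p = 0.3). Of the 19 macrophage and neutrophil genes tested, 13 had a positive effect at 2 weeks (median 0.168), and their summed level there was 74.01 to 112.8 CPM with BF BSHlow and 101.1 to 170.5 CPM with BF BSHhigh. The neutrophil gene S100a9 was near the floor, at 0.240 ± 0.161 CPM in the BF BSHhigh and 0.319 ± 0.199 CPM in the BF BSHlow libraries at 2 weeks (SD, n = 4 libraries in each group).

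Atp12a, a subunit of the proton and potassium pump of the distal colon, overlaps the gene model Gm10873 on the opposite strand, so part of its counts may belong to that gene. It had 0.827, 3.60, 4.43 and 4.98 CPM against 243, 34.7, 76.6 and 5.24 CPM at 2 weeks. At 12 weeks it had 743, 491, 419 and 1363 CPM against 668, 486, 434 and 626 CPM. The effects differed by -5.14 (SE 1.11, adjusted p = 0.3). Tgm3, a transglutaminase, was at 395, 46.8, 273 and 20.5 CPM in the BF BSHhigh libraries at 2 weeks and at 4.34 to 26.3 CPM in the BF BSHlow libraries, with a difference between the times of -4.56 (SE 1.05, adjusted p = 0.37). The BF BSHhigh values of these genes were uneven from library to library and highest in libraries 1 and 3, or in library 1 alone.

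The distal position genes were uneven in the same way. Their summed level at 2 weeks was 80.0, 11.6, 86.2 and 6.62 CPM in the 4 BF BSHhigh libraries and 6.27, 7.75, 24.7 and 15.3 CPM in the BF BSHlow libraries. Hoxb13, a homeobox gene of the most distal gut, reached 55.2 and 52.2 CPM in BF BSHhigh libraries 1 and 3 and 4.65 and 1.89 CPM in the other two. Without libraries 1 and 3, the difference for Hoxb13 went from -2.97 to 0.131, that for Hoxa13 from -1.24 to 0.657, that for Atp12a from -5.14 to -2.99 and that for Tgm3 from -4.56 to -2.12. That for Ly6g went from -3.26 to -2.33 and that for Fxyd4 from -6.53 to -5.30. The part of colon position in these genes was not tested.

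Fxyd4, a regulator of the sodium pump, differed by -6.53 between the times (SE 1.32, adjusted p = 0.292). It had 0, 0.153, 0.174 and 0.0646 CPM against 3.32, 1.86, 4.38 and 0.145 CPM at 2 weeks, and 23.8, 27.6, 50.4 and 151 CPM against 14.7, 23.1, 14.7 and 13.98 CPM at 12 weeks. At 2 weeks the BF BSHlow libraries (at most 0.174 CPM) and BF BSHhigh library 4 (0.145 CPM) held only a few reads each. At 12 weeks every BF BSHhigh library was under every BF BSHlow one. Casp14, a caspase of cornifying epithelium, was likewise near 0 with BF BSHlow at 2 weeks (0.0364 ± 0.0422 CPM against 1.58 ± 1.27 CPM with BF BSHhigh, SD, n = 4 libraries in each group). It was between 41.9 and 94.8 CPM at 12 weeks.

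Others were lower with BF BSHhigh at 12 weeks. Slc7a8, a neutral amino acid transporter, had 18.1, 20.8, 15.0 and 44.4 CPM against 7.96, 10.3, 10.1 and 8.01 CPM at 12 weeks, without overlap, and 10.1 ± 4.0 CPM against 14.7 ± 4.68 CPM at 2 weeks (SD, n = 4 libraries in each group). The effects differed by -1.96 (SE 0.50, adjusted p = 0.377). Sstr1, a somatostatin receptor, had 20.5, 19.2, 8.70 and 10.3 CPM against 20.5, 45.6, 11.7 and 40.8 CPM at 2 weeks and 13.1, 7.88, 12.7 and 14.5 CPM against 4.74, 8.60, 5.78 and 4.003 CPM at 12 weeks. Its groups overlapped at both times and the effects differed by -2.06 (SE 0.56, adjusted p = 0.377). Abtb2 (-1.65, SE 0.34), Fhl1 (-1.06, SE 0.29) and the adhesion molecule Cadm1 (-1.31, SE 0.36) were higher at 2 weeks and lower at 12 weeks by their fitted values, with adjusted p of 0.292, 0.377 and 0.391. Gm17322, a noncoding gene model, had 5.44, 5.34, 3.33 and 16.3 CPM against 1.19, 1.02, 0.393 and 1.02 CPM at 12 weeks, and the effects differed by -4.36 (SE 0.73, adjusted p = 0.113).

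Goblet cell genes were higher with BF BSHhigh at 12 weeks and level at 2 weeks. All 14 of the 14 tested had a more positive effect at 12 weeks (12 to 14 with any 1 library left out), 8 of them at an unadjusted p under 0.05 (4.57% of all genes). The median difference was 0.634 on the log2 scale against -0.001 over all genes tested. Their median effect was -0.061 at 2 weeks and 0.598 at 12 weeks (-0.006 and -0.004 over all genes). At 12 weeks 10 of the 14 were higher at an unadjusted p under 0.05 (5.14% of all genes). None passed with adjustment. Over all alternatives the median difference lay between 0.58 and 0.879, and at 12 weeks 7 of the 14 had groups that did not overlap, a pattern seen for 3.24% of all genes.

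Muc2, the mucin that forms the mucus gel, had 5339, 4623, 7372 and 8759 CPM against 5405, 3956, 6929 and 3622 CPM at 2 weeks, and 2243, 1753, 1520 and 1749 CPM against 5870, 3725, 2150 and 3350 CPM at 12 weeks. The groups overlapped at both times, at 12 weeks by 1 library on each side, and the effects differed by 1.45 (SE 0.40, adjusted p = 0.427). Spink4, a protease inhibitor of goblet cells, showed the widest difference in the list, 2.19 (SE 0.52, adjusted p = 0.37). Its libraries had 220, 639, 620 and 405 CPM against 210, 195, 478 and 149 CPM at 2 weeks and 608, 524, 301 and 356 CPM against 1235, 1138, 868 and 1243 CPM at 12 weeks. Every BF BSHhigh library was above every BF BSHlow library at 12 weeks. Agr2, an endoplasmic reticulum protein needed for mucin folding, was at 717 ± 84.3 CPM and 1296 ± 179 CPM at 12 weeks and at 1019 ± 170 CPM and 949 ± 373 CPM at 2 weeks (SD, n = 4 libraries in each group). Galnt12, which starts mucin glycosylation, was at 60.8 ± 10.1 CPM and 94.1 ± 12.8 CPM at 12 weeks and at 100 ± 5.56 CPM and 96.5 ± 14.9 CPM at 2 weeks (SD, n = 4 libraries in each group).

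Of the goblet cell transcription factors, Spdef differed between the times by 0.71 and Atoh1, the factor that sets secretory fate, by 0.58, both with an unadjusted p under 0.05. Creb3l4, a factor of the secretory pathway that was named for its 12-week effect, was at 28.4, 17.8, 13.1 and 19.1 CPM against 45.7, 47.6, 32.9 and 37.1 CPM at 12 weeks, and at 38.2 ± 4.82 CPM and 36.8 ± 5.95 CPM at 2 weeks (SD, n = 4 libraries in each group). Cgref1, a secreted growth regulator named by the same rule, was 1.08 higher at 12 weeks (SE 0.18, adjusted p = 0.0967) and 0.13 higher at 2 weeks (SE 0.17).

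Cell cycle genes were lower with BF BSHhigh at 2 weeks and slightly higher at 12 weeks. All 18 of 18 had a positive difference between the times (median 0.681), 8 of them at an unadjusted p under 0.05 (4.57% of all genes). At 2 weeks all 18 were lower (median -0.503, 8 at an unadjusted p under 0.05, where 3.67% of all genes were), and at 12 weeks 16 of 18 were higher (median 0.19, none at an unadjusted p under 0.05). Top2a, which untangles replicated DNA, had 84.7, 60.7, 87.3 and 101 CPM against 45.8, 60.4, 71.8 and 44.6 CPM at 2 weeks and 52.7, 49.1, 53.9 and 39.8 CPM against 78.0, 48.2, 45.4 and 96.2 CPM at 12 weeks. The groups overlapped at both times, and the effects differed by 1.04 (SE 0.33, adjusted p = 0.453). Mki67, the proliferation marker, was at 139 ± 34.9 CPM and 94.6 ± 16.6 CPM at 2 weeks and at 92.5 ± 28.0 CPM and 96.8 ± 19.0 CPM at 12 weeks (SD, n = 4 libraries in each group). Cdk1, the mitotic kinase, differed by 0.77 (SE 0.24, adjusted p = 0.449). The direction of all 18 differences held under every alternative, but the count of 8 fell to 4 without BF BSHhigh library 1 or 4 or BF BSHlow library 4 at 2 weeks or BF BSHhigh library 4 at 12 weeks. It was 5 without BF BSHlow library 3 at 2 weeks, without BF BSHhigh library 1 at 12 weeks, or with scaling by library size alone.

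**Figure D3:**
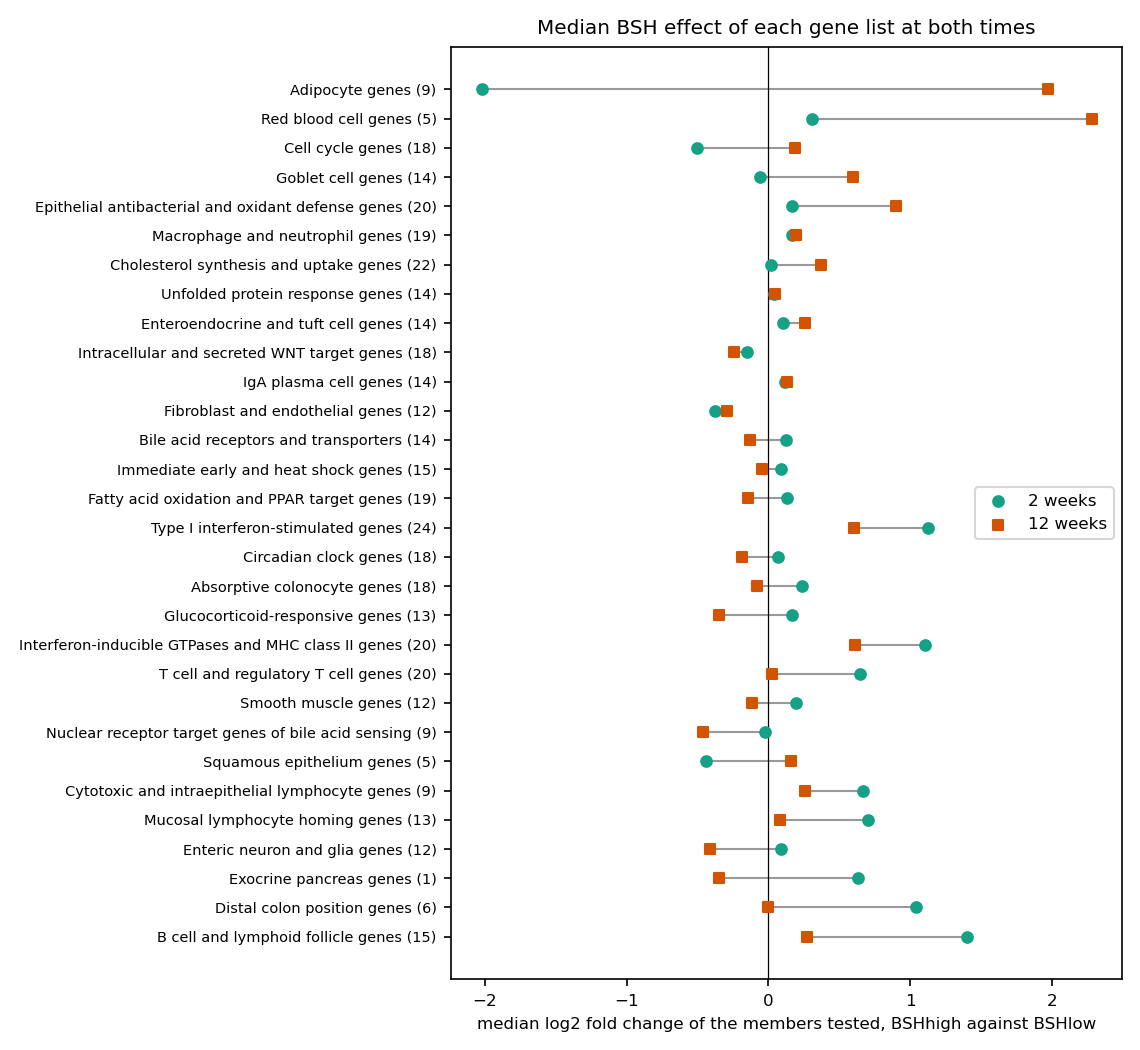
Median BSH effect (log2 fold change of BF BSHhigh over BF BSHlow) of each gene list at 2 weeks (circles) and at 12 weeks (squares). Both interferon lists are to the right of 0 at both times (1.125 and 0.603, 1.106 and 0.61), cell cycle genes cross from -0.503 to 0.19, and goblet cell genes go from -0.061 to 0.598.

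Most antibacterial and oxidant defense genes had a positive effect at 12 weeks, while their summed level differed more at 2 weeks. At 12 weeks 17 of 20 were higher (median 0.902), 10 at an unadjusted p under 0.05, a level that 5.14% of all genes reached and 2.98% in the lower direction, and at 2 weeks 12 of 20 (median 0.166), 3 at that p. The median summed level was 10740 CPM with BF BSHlow and 15470 CPM with BF BSHhigh at 2 weeks, and 15060 CPM and 16890 CPM at 12 weeks, with overlap at both times. Groups of single members did not overlap in the higher direction for 3 genes at 2 weeks (1.75% of all genes) and 2 at 12 weeks (3.24%). The difference between the times was positive for 13 of 20 (median 0.444), 5 at an unadjusted p under 0.05 (4.57% of all genes), with 1 in the other direction (2.74%), Lypd8. Reg4 and Nos2 belong to this list. Its median difference was 0.148 without BF BSHhigh library 1 at 12 weeks, 0.767 without BF BSHhigh library 1 at 2 weeks, 0.755 without BF BSHhigh library 3 at 2 weeks, 0.815 and 0.743 without BF BSHlow library 1 or 4 at 12 weeks, and 0.215 over the 10 genes that held 10 counts in every library. Without both BF BSHhigh libraries 1 and 3 at 2 weeks it was 1.259. Nox1, the epithelial NADPH oxidase, had 6.13, 7.75, 10.7 and 10.7 CPM against 3.48, 4.98, 8.63 and 3.78 CPM at 2 weeks and 53.2, 34.8, 17.02 and 27.6 CPM against 80.6, 35.8, 60.4 and 85.8 CPM at 12 weeks. Its effects differed by 1.73 (SE 0.51, adjusted p = 0.435). Retnlb, a goblet cell protein that acts on bacteria, had 13.2, 6.38, 0.123 and 2.42 CPM against 64.7, 19.2, 4.61 and 67.8 CPM at 12 weeks and 290 ± 146 CPM against 244 ± 158 CPM at 2 weeks (SD, n = 4 libraries in each group). Its effects differed by 3.08 (SE 1.17, adjusted p = 0.596). The neutrophil alarmin S100a9 had 66.6 CPM in 1 BF BSHhigh library at 12 weeks and 3.54 to 12.5 CPM in the others, against 0.408 to 6.74 CPM with BF BSHlow.

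Cholesterol synthesis and uptake genes had a similar, weaker pattern. The difference between the times was positive for 18 of 22 (median 0.342), 2 at an unadjusted p under 0.05 (4.57% of all genes). At 12 weeks 19 of 22 were higher (median 0.37), 6 at that p (5.14% of all genes). Abcg5, a part of the sterol efflux pump, had a difference of the opposite sign (-1.79, SE 0.57, adjusted p = 0.46), from 1.48 ± 0.728 CPM to 3.48 ± 1.38 CPM at 2 weeks and from 20.1 ± 8.94 CPM to 13.5 ± 5.55 CPM at 12 weeks (SD, n = 4 libraries in each group). The count of 2 became 12 without BF BSHlow library 4 at 12 weeks, 8 without BF BSHhigh library 3 at 2 weeks, and 1 without BF BSHlow library 1 at 12 weeks or BF BSHlow library 3 at 2 weeks. It was 4 with limma-voom. The 12-week count of 6 became 2 without BF BSHlow library 1 or 3 at 12 weeks, 3 without BF BSHhigh library 3 there, 15 without BF BSHlow library 4 there and 11 with limma-voom. Its median was 0.23 without BF BSHlow library 1 and 0.639 without BF BSHlow library 4 at 12 weeks, where the median difference was 0.211 and 0.535, and that difference was 0.519 without BF BSHhigh library 3 at 2 weeks.

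BF BSHlow library 4 at 12 weeks also stood apart in glucocorticoid-responsive genes, with a summed level of 2413 CPM against 1288 to 1348 CPM in the rest of its group. These 13 genes had a median difference of -0.433, 4 lower (2.74% of all genes) and 1 higher (4.57%) at an unadjusted p under 0.05. Sgk1, a kinase induced by corticosteroids, had 86.9, 146, 219 and 696 CPM against 100, 78.1, 87.9 and 71.2 CPM at 12 weeks. Zbtb16, also steroid-induced, had 11.8, 19.4, 14.6 and 17.6 CPM against 6.21, 6.72, 5.28 and 5.83 CPM there, and was under 0.7 CPM in every library at 2 weeks. The metallothionein gene Mt2 was higher with BF BSHhigh at 12 weeks, at 9.05, 10.9, 5.98 and 7.92 CPM against 17.6, 12.7, 18.5 and 38.1 CPM. Without that library the median difference was -0.311. The part of that library in the other 12-week differences was not tested further.

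Type I interferon-stimulated genes were higher with BF BSHhigh at both times. All 24 of 24 had a positive effect at 2 weeks (median 1.125) and at 12 weeks (median 0.603), where 48.6% and 49.3% of all genes had one. At an unadjusted p under 0.05 these were 18 of 24 at 2 weeks (3.66% of all genes) and 4 of 24 at 12 weeks (5.14%), all 4 shared, and none passed with adjustment. Members of this and the other lists were measured in the same libraries, so they are not independent replicates. The 12-week effect was smaller for 21 of 24 (median difference -0.349), but only 1 of the 24 had an unadjusted p under 0.05 for that difference (2.74% of all genes in that direction). Many such genes carry a promoter element, the interferon-stimulated response element (ISRE), bound by the transcription factor complex that interferon receptors activate.

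The promoters of Isg15 and Ifit1, of the GTPase genes Irgm1 and Gbp2 and of Oas1g, an interferon-induced gene outside both lists, are shown to give that element in its place, in capitals. The letters searched were GAAA, any 2 bases and GAAA again, on either strand. The sequences are RefSeq promoters on GRCm38.p6, each the 120 bases before a transcript start, read 5′ to 3′ on the gene's strand.
Isg15 (chr4:156200819-156200938, minus strand): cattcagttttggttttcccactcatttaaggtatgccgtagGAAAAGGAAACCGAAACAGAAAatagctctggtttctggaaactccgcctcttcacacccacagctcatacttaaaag
Ifit1 (chr19:34640769-34640888, plus strand): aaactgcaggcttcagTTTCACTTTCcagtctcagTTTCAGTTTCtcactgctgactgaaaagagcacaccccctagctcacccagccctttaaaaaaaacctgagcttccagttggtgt
Oas1g (chr5:120887614-120887733, minus strand): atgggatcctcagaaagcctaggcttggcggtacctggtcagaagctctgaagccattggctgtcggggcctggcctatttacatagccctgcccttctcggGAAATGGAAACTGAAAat
Irgm1 (chr11:48871421-48871540, minus strand): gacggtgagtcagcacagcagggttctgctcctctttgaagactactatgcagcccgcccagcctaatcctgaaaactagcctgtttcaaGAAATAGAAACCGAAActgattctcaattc
Gbp2 (chr3:142620543-142620662, plus strand): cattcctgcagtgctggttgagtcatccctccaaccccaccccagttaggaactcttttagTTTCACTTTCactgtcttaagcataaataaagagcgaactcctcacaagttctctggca

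In the 250 bases before the start, the ISRE letters stood in 9 of the 17 type I interferon-stimulated genes with a RefSeq promoter (52.9%) and in 9 of 13 interferon-inducible GTPase and MHC class II genes (69.2%), against 932 of all 26994 genes (3.45%). The letters TTCNNNGAA of the gamma-activated site stood in 3 of 17 (17.6%), 6 of 13 (46.2%) and 8.12% of all genes, also on either strand. The 3 ISRE matches of Isg15 overlap each other, as do the 2 of Oas1g and the 2 of Irgm1. The match is a description of the letters, and no binding was measured.

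Isg15, the ubiquitin-like protein with the most ISRE matches of those shown, had 5.58, 6.52, 6.00 and 43.2 CPM in BF BSHlow and 37.3, 78.3, 66.3 and 28.7 CPM in BF BSHhigh colon at 2 weeks. At 12 weeks it had 5.44, 4.92, 1.91 and 3.96 CPM against 10.5, 11.9, 9.43 and 7.12 CPM. BF BSHlow library 4 at 2 weeks stood among the BF BSHhigh libraries, and at 12 weeks the groups were apart. Ifit1, which binds viral RNA and had fractional counts in 14 libraries, had 34.4, 47.2, 22.6 and 138 CPM against 102, 218, 141 and 107 CPM at 2 weeks and 9.53, 5.65, 3.76 and 5.68 CPM against 12.6, 19.8, 11.1 and 5.63 CPM at 12 weeks. The same library was the highest of its group. Irf7, the master regulator of the type I response, had 215, 152, 178 and 250 CPM against 370, 592, 361 and 406 CPM at 2 weeks and 52.5, 59.6, 49.9 and 36.5 CPM against 92.1, 86.2, 65.9 and 62.8 CPM at 12 weeks, with no overlap at either time. Its effects were 1.12 (SE 0.20) and 0.63 (SE 0.20), and their average had an adjusted p of 0.0758.

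**Figure D4:**
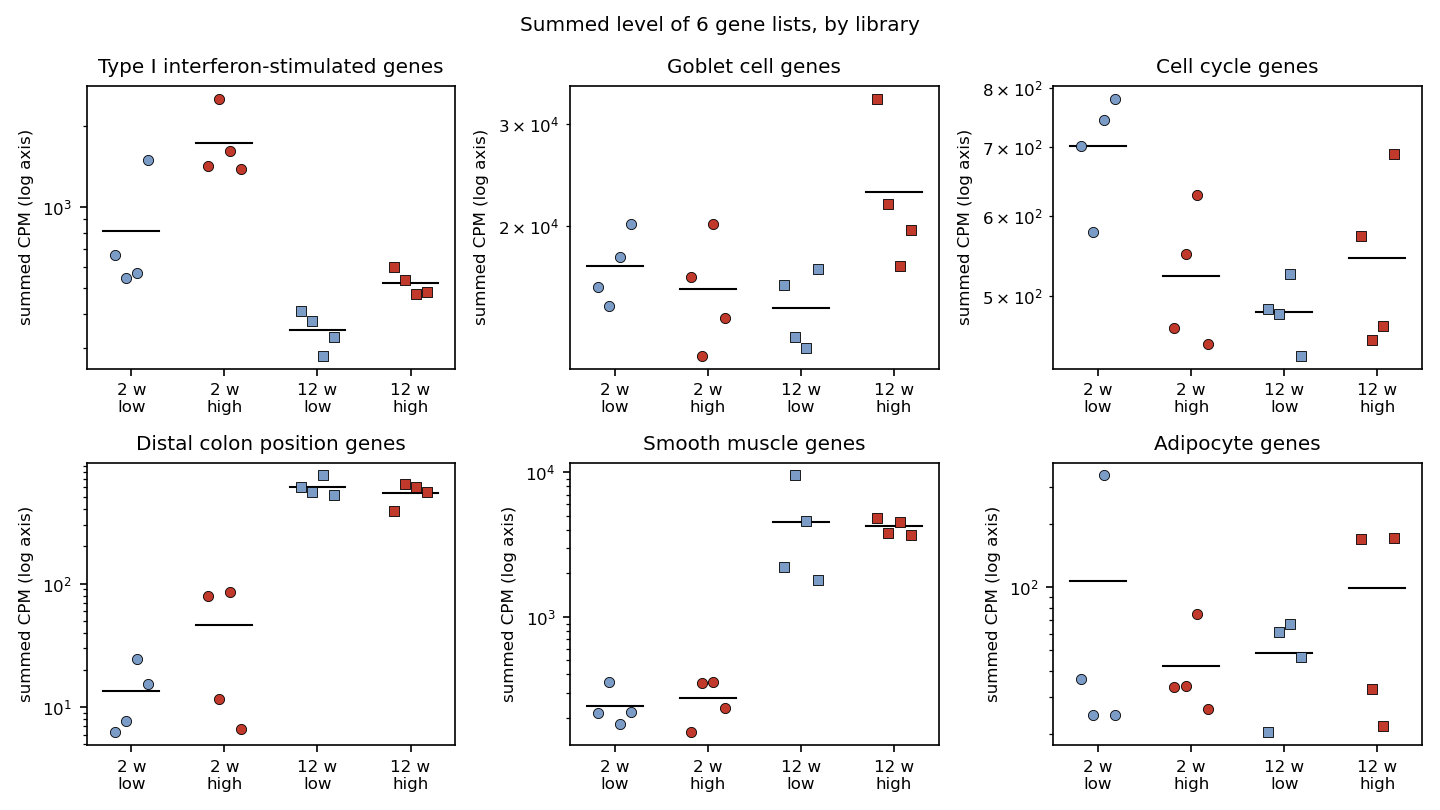
Summed level (CPM, log axis) of selected gene lists in each of the 16 libraries, with circles for 2 weeks, squares for 12 weeks, blue for BF BSHlow, red for BF BSHhigh and a line at each group mean. In the interferon panel BF BSHlow library 4 at 2 weeks (1491 CPM) lies among the BF BSHhigh libraries, and distal colon position genes reach 80.0 and 86.2 CPM in BF BSHhigh libraries 1 and 3 at 2 weeks.

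The difference between the times moved with that library. The summed level of the 24 genes was 663.1, 541.8, 569.8 and 1491 CPM with BF BSHlow and 1420, 2520, 1609 and 1386 CPM with BF BSHhigh at 2 weeks, and 279.8 to 410.6 CPM against 472.7 to 598.8 CPM at 12 weeks. Without BF BSHlow library 4 at 2 weeks, the 2-week median effect became 1.968, 15 of the 24 genes passed the threshold at 2 weeks, the median difference between the times became -1.157, and 16 of the 24 had an unadjusted p under 0.05 for it. Without BF BSHhigh library 2 at 2 weeks, the highest of the list, the median difference became -0.057 and 9 in place of 18 genes had an unadjusted p under 0.05 at 2 weeks. That count was 11 without BF BSHlow library 1, 2 or 3 at 2 weeks, and at 12 weeks the count of 4 became 7 without BF BSHlow library 1, and 7 without BF BSHlow library 2 at 2 weeks. The positive direction held for 24 of 24 genes at 2 weeks with any 1 library left out, and for 23 or 24 at 12 weeks. Its size at 2 weeks relative to 12 weeks did not hold across the libraries left out.

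Interferon-inducible GTPases and MHC class II genes were also all higher at both times, 20 of 20 (medians 1.106 and 0.61), 16 at an unadjusted p under 0.05 at 2 weeks (3.66% of all genes) and 1 at 12 weeks (5.14%). At 12 weeks 13 were higher without BF BSHlow library 4, 14 without BF BSHhigh library 3, and the median was 0.386 without BF BSHhigh library 4. The count of 16 became 7 without BF BSHlow library 2 or BF BSHhigh library 2 at 2 weeks, 8 without BF BSHlow library 3 there and 10 with scaling by library size alone. That of 1 ranged from 0, without BF BSHhigh library 4 at 12 weeks, to 7, without BF BSHlow library 4 at 2 weeks. It was 5 without BF BSHlow library 1 and 6 without BF BSHhigh library 2 at 12 weeks, and 2 without BF BSHhigh library 3 at 12 weeks, BF BSHlow library 2 or 3 at 2 weeks or BF BSHhigh library 2 at 2 weeks. Gbp2, a guanylate-binding protein against intracellular microbes, had 11.2, 6.83, 10.4 and 24.6 CPM against 36.7, 27.6, 55.0 and 35.4 CPM at 2 weeks and 31.4, 26.4, 20.8 and 23.2 CPM against 61.6, 28.2, 31.8 and 86.5 CPM at 12 weeks. Its effects were 1.54 (SE 0.39) and 1.03 (SE 0.38). Irgm1, an immunity-related GTPase, had effects of 0.65 (SE 0.27) and 0.58 (SE 0.27). H2-Aa, a chain of MHC class II, had 49.6, 16.9, 30.0 and 46.7 CPM against 143, 73.0, 103 and 54.7 CPM at 2 weeks and 233, 233, 153 and 59.6 CPM against 130, 92.3, 292 and 178 CPM at 12 weeks. It was apart at 2 weeks and overlapped at 12 weeks, with effects of 1.38 (SE 0.46) and 0.03 (SE 0.44) and a difference of -1.35 (SE 0.63, adjusted p = 0.681).

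B cell and lymphoid follicle genes, from cells that carry MHC class II, varied from library to library. All 15 were positive at both times (medians 1.399 and 0.269), with none under an unadjusted p of 0.05 for the difference. Their summed level was 34.7, 4.99, 9.04 and 16.03 CPM against 40.3, 94.2, 11.9 and 29.9 CPM at 2 weeks and 275.5, 230.4, 144.9 and 21.1 CPM against 67.9, 104.1, 543.5 and 111.3 CPM at 12 weeks. Their 12-week median was -0.862 without BF BSHhigh library 3 and -0.102 without BF BSHlow library 4 at 12 weeks. The part of follicles in the MHC class II values was not tested.

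Genes in the same direction at both times were counted next. At an unadjusted p under 0.05 at each time, 59 genes (0.38% of those tested) were higher at both and 21 (0.135%) lower at both, while 36 (0.232%) were lower at 2 weeks and higher at 12 weeks and 19 (0.122%) the reverse. None passed the adjusted threshold at both times, and DESeq2 called 1, Nos2. At 2 weeks alone the groups did not overlap for 1.75% of genes in the higher and 1.78% in the lower direction, at 12 weeks for 3.24% and 2.0%. They did not overlap at either time for 14 genes higher at both (0.0901%) and 4 lower at both (0.0258%). The 14 included Irf7, Nos2, Ly6g, Oas1g, Ube2l6, Trim12c, H2-D1, AW112010, Ms4a12, Rnaset2b, Slc25a45, Tmem150b and Tmem238l, and the 4 were Apbb2, Ccp110, Ddit4l and Usp33, most of them named after their values were seen.

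Nos2, the inducible nitric oxide synthase (ENSMUSG00000020826.8, chr11:78920787-78960254, plus strand), had 0.689, 0.537, 1.57 and 0.711 CPM against 1.74, 4.05, 5.12 and 2.33 CPM at 2 weeks and 9.05, 9.12, 14.5 and 12.4 CPM against 39.4, 28.5, 21.4 and 70.7 CPM at 12 weeks. Every BF BSHhigh library was above every BF BSHlow library at each time, on base levels that differed between the times. The effects were 1.96 (SE 0.48) and 1.83 (SE 0.36), their average had an adjusted p of 0.0758, and the difference of -0.13 had a 95% interval from -1.34 to 1.08, which leaves room for unequal effects.

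Zbp1, a sensor of Z-form nucleic acid, had 16.1, 10.2, 10.8 and 41.3 CPM against 38.7, 77.0, 61.0 and 42.2 CPM at 2 weeks and 12.2, 9.28, 3.76 and 4.32 CPM against 35.4, 15.4, 16.5 and 30.9 CPM at 12 weeks. Its effects were 1.47 (SE 0.46) and 1.73 (SE 0.48). Ddx60, a helicase of the antiviral response, had effects of 1.24 (SE 0.44) and 1.23 (SE 0.47), again with BF BSHlow library 4 at 2 weeks (114 CPM) inside the BF BSHhigh range. Ppy, the pancreatic polypeptide gene of enteroendocrine cells, had effects of 1.28 (SE 0.56) and 1.57 (SE 0.51) from low levels, 1.62 ± 0.864 CPM to 3.97 ± 2.76 CPM at 2 weeks and 5.70 ± 2.63 CPM to 16.9 ± 5.90 CPM at 12 weeks (SD, n = 4 libraries in each group).

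**Figure D5:**
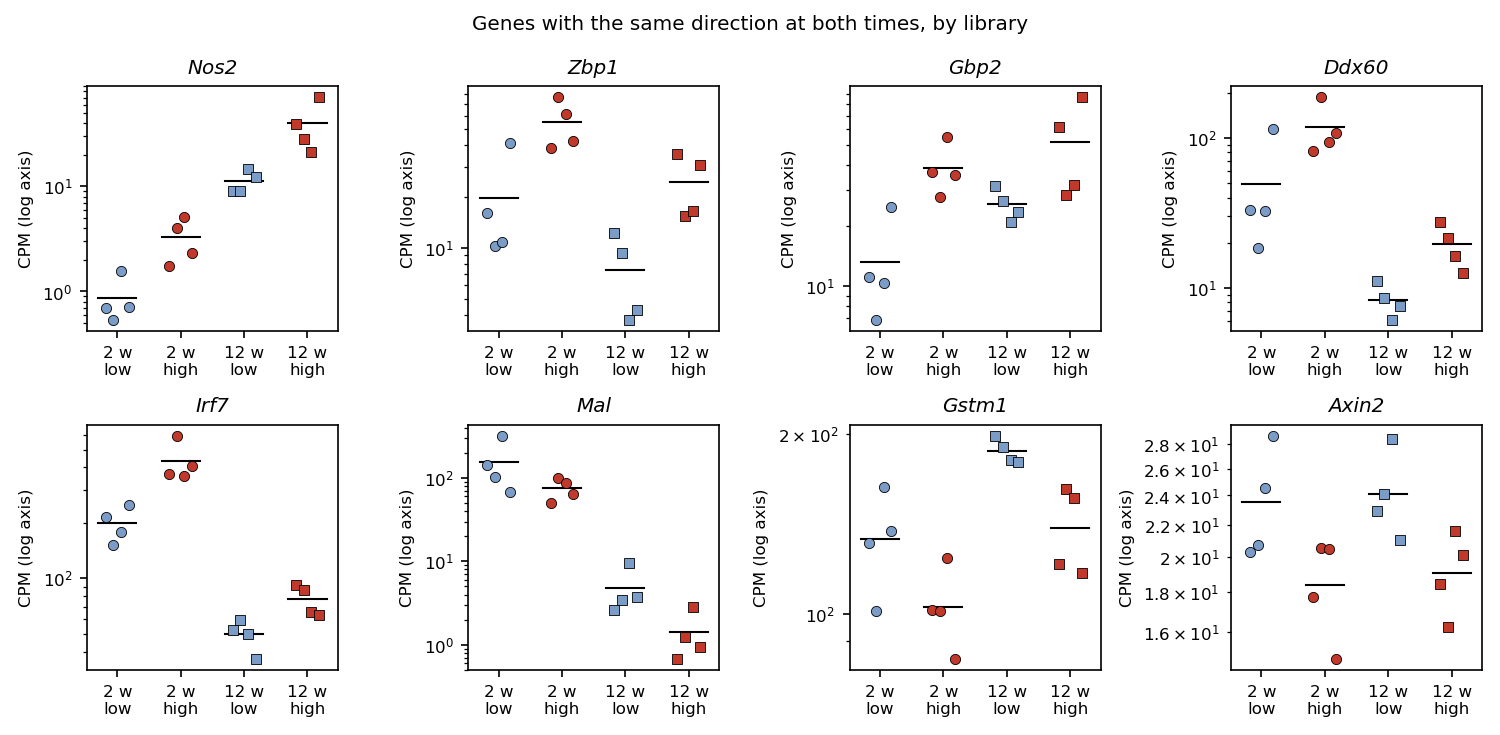
Level (CPM, log axis) of the genes named for the same direction at both times, in each of the 16 libraries, with circles for 2 weeks, squares for 12 weeks, blue for BF BSHlow, red for BF BSHhigh and a line at each group mean. Nos2 does not overlap between the groups at either time, while Ddx60 has 1 BF BSHlow library at 114 CPM among the BF BSHhigh libraries at 2 weeks.

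Of the smaller effects, the class I antigen-presenting molecule H2-D1 had 873, 681, 725 and 732 CPM against 1038, 1173, 1054 and 1062 CPM at 2 weeks and 563, 586, 578 and 518 CPM against 841, 613, 708 and 694 CPM at 12 weeks. H2-D1, Oas1g and Trim12c have close copies in the genome and had fractional counts in all 16 libraries, so how their reads were shared with those copies is uncertain. Oas1g, an enzyme of the antiviral RNase pathway, had effects of 1.23 (SE 0.20, adjusted p = 0.0518) and 0.33 (SE 0.20). Ifi27, an interferon-induced mitochondrial protein, was the other of the 2 genes (0.0129%) that were higher at 2 weeks at an adjusted p under 0.05, but not past the size limit (0.81, SE 0.13, adjusted p = 0.0432). Ifi27 was at 30.6, 29.8, 25.8 and 34.7 CPM against 51.5, 62.2, 47.9 and 51.4 CPM there, and at 48.0 ± 6.74 CPM and 48.0 ± 6.22 CPM at 12 weeks (SD, n = 4 libraries in each group). Its effects differed by -0.82 (SE 0.18, adjusted p = 0.3).

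Among genes lower at both times, Mal, a lipid raft protein, had 141, 102, 316 and 68.6 CPM against 50.4, 99.8, 87.0 and 64.3 CPM at 2 weeks and 2.59, 3.47, 9.56 and 3.73 CPM against 0.678, 1.25, 2.86 and 0.950 CPM at 12 weeks. The groups overlapped at both times and the effects were -1.06 (SE 0.44) and -1.73 (SE 0.61). Axin2, a negative feedback target of WNT and beta-catenin signaling, had 20.3, 20.7, 24.5 and 28.6 CPM against 17.7, 20.5, 20.5 and 14.8 CPM at 2 weeks and 22.9, 24.1, 28.4 and 20.99 CPM against 18.5, 16.2, 21.6 and 20.1 CPM at 12 weeks. The effects were -0.36 (SE 0.14) and -0.34 (SE 0.14). The 18 WNT target genes as a list had median effects of -0.153 and -0.24 and a median difference of 0.01. At an unadjusted p under 0.05, 2 were lower at 2 weeks (3.67% of all genes) and 5 at 12 weeks (2.98%). Rnf43, a ubiquitin ligase that removes WNT receptors, differed between the times by -0.45 (SE 0.18, adjusted p = 0.628), from 30.0 ± 3.79 CPM and 30.1 ± 0.868 CPM at 2 weeks to 41.7 ± 6.02 CPM and 30.8 ± 5.15 CPM at 12 weeks (SD, n = 4 libraries in each group). The surface glycoprotein Cd44, also in that list, went the other way, by 0.75. The mitochondrial carrier Slc25a23, the kinase Pim3 and the glutathione transferase Gstm1 were lower at both times by 0.38 to 0.50 on the log2 scale.

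A further set was lower with BF BSHhigh at 2 weeks and near level at 12 weeks. The sulfotransferase gene Gal3st2c had 79.1, 118, 348 and 22.2 CPM against 10.6, 33.5, 10.1 and 12.5 CPM at 2 weeks (-3.08, SE 0.61, adjusted p = 0.165), and 51.9 ± 4.75 CPM against 55.4 ± 12.3 CPM at 12 weeks (SD, n = 4 libraries in each group). Its counts were fractional in all 16 libraries. St3gal5, which makes the ganglioside GM3, had 19.7, 22.7, 55.9 and 6.204 CPM against 2.74, 9.83, 1.48 and 2.69 CPM at 2 weeks and 1.95 ± 0.977 CPM against 2.36 ± 1.58 CPM at 12 weeks (SD, n = 4 libraries in each group). The membrane mucin Muc16 was 0.0727 to 0.270 CPM with BF BSHhigh and 0.776 to 6.52 CPM with BF BSHlow at 2 weeks. Ikzf2, an Ikaros family factor of regulatory T cells, had 22.7, 25.6, 36.5 and 24.8 CPM against 17.2, 14.9, 7.89 and 18.1 CPM at 2 weeks and 10.8 ± 2.26 CPM against 14.4 ± 2.14 CPM at 12 weeks (SD, n = 4 libraries in each group). It differed by 1.33 between the times (SE 0.32, adjusted p = 0.375), while Foxp3, the factor that defines those cells, was between 0 and 1.68 CPM in all libraries and differed by -1.77 (95% interval -4.72 to 1.19, adjusted p = 0.839).

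Ccl28, an epithelial chemokine that the study follows, had no detectable difference in its response. It had 63.8, 71.8, 64.6 and 75.0 CPM against 71.2, 61.5, 93.1 and 72.4 CPM at 2 weeks and 311, 282, 196 and 235 CPM against 374, 215, 326 and 290 CPM at 12 weeks. The groups overlapped at both times. The difference of the effects in log2 CPM was 0.123 (exact permutation test over 4900 assignments, two-sided, p = 0.65), and edgeR gave 0.12 with a 95% interval from -0.40 to 0.63. Mucosal lymphocyte homing genes, Ccl28 among them, had a median difference of -0.623. Of the 13, 1 was lower at an unadjusted p under 0.05 (2.74% of all genes), the T cell chemokine Ccl5. At 2 weeks 12 of the 13 were higher (median 0.701), 3 at an unadjusted p under 0.05 (3.66% of all genes). That median was 0.465 without BF BSHhigh library 2 at 2 weeks. The count of 3 was 1 without that library, without BF BSHlow library 2 or 3 at 2 weeks, or with limma-voom. The summed level at 2 weeks was 92.96 to 121.0 CPM with BF BSHlow and 130.9 to 172.3 CPM with BF BSHhigh. These sums did not overlap, but the groups overlapped for every single member. Ccl28 alone held 63.8 to 75.0 CPM and 61.5 to 93.1 CPM of them. At 12 weeks the median was 0.078 and the sums overlapped.

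The bile acid receptor and transporter genes differed little. Of 14 tested bile acid receptors and transporters, none had an unadjusted p under 0.05 for the difference (median -0.164). At that p, 1 was higher and 1 lower at 2 weeks (3.66% and 3.67% of all genes) and none at 12 weeks. The receptor genes Nr1h4, Vdr and Nr1i2 differed by -0.27, -0.12 and -0.24, and Gpbar1, the membrane bile acid receptor, did not pass the filter on low counts. Of 9 nuclear receptor target genes, 8 had a negative difference (median -0.548). For 2 of them, Sult2b1 and Cyp3a13, the unadjusted p was under 0.05 (2.74% of all genes in that direction).

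For the remaining lists, median differences between the times were -0.504 for T cell genes (18 of 20 negative), -0.623 for cytotoxic and intraepithelial lymphocyte genes, -0.411 for absorptive colonocyte genes, 0.044 for enteroendocrine and tuft cell genes, and -0.367 for circadian clock genes (15 of 18 negative). They were -0.271 for fatty acid oxidation genes, 0.062 for unfolded protein response genes, -0.165 for immediate early and heat shock genes, -0.084 for IgA plasma cell genes and 0.374 for macrophage and neutrophil genes. In these lists at most 2 members had an unadjusted p under 0.05 for the difference in either direction (4.57% of all genes higher, 2.74% lower). For markers of other tissue, the medians were -0.51 for smooth muscle, -0.637 for enteric neuron and glia, -0.154 for fibroblast and endothelial, -0.621 for squamous epithelium and -1.092 for distal position genes, and -0.982 for the 1 pancreas gene tested.

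Adipocyte and red blood cell genes had positive differences that varied in size with single libraries. Adipocyte genes had a median difference of 3.991, with 9 of 9 positive and 3 at an unadjusted p under 0.05 (4.57% of all genes). Their summed level was 341.7 CPM in BF BSHlow library 3 at 2 weeks and 24.6 to 36.3 CPM in the rest of that group, and 170.4 and 172.1 CPM in BF BSHhigh libraries 1 and 4 at 12 weeks. Without BF BSHlow library 3 at 2 weeks the median was 1.101. Red blood cell genes had a median difference of 1.826, with 5 of 5 positive, and summed levels of 188.8, 2251, 1138 and 498.1 CPM with BF BSHhigh against 111.4 to 306.1 CPM with BF BSHlow at 12 weeks. At 12 weeks all 5 were higher at an unadjusted p under 0.05 (5.14% of all genes), with a median of 2.276. There, 3 of the 4 BF BSHhigh libraries were above every BF BSHlow library. Without BF BSHhigh library 2 at 12 weeks the median difference was 1.19, and at 12 weeks the median was 1.461 with 3 at that p. The part of fat or blood in the samples in the other differences was not tested.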

How the data were processed

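RNA from mouse colon was sequenced as paired-end reads from stranded libraries; the labels name a total RNA kit and the study's methods an mRNA kit. The submitters' processing notes name cutadapt, STAR, Picard, RSEM and the build mm10, and the authors deposited RSEM expected counts per gene (versions not given in the sources used here), of which 4.13% were not whole (tolerance 0.005). All 55450 genes matched GENCODE, which gave coordinates. Strand use in counting is not given, so genes overlapping on opposite strands, such as Irf7 and Phrf1 or Atp12a and Gm10873, cannot be told apart. The 7 tumor columns were not used.

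Expected counts were rounded, filtered with filterByExpr and scaled by TMM (edgeR 4.0.16, R 4.3.3). One quasi-likelihood model of 4 group means over 16 libraries gave both effects, their difference and their average. Called genes had a Benjamini-Hochberg adjusted p under 0.05 and an absolute log2 value over 1. SE is the log2 value over the square root of F. CPM are TMM-scaled. The fit was tested on simulated data. DESeq2 1.42.0, limma 3.58.1 (voom), other scalings, filters, a replicate block and each library left out were alternatives.

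Named genes were up to 10 of each sign for the difference with the smallest p among genes with a mean of at least 1 CPM and an absolute log2 value over 1 where too few were called, 6 for the average, 5 for each single effect, 5 of each sign in the same direction at both times, 2 from each of the 30 lists, and Ccl28, Foxp3 and Mki67; others are marked in the text or belong to a list. The comparison, lists and named-gene rule were chosen with earlier results of these data known. Depth limits low genes most: 28697 genes had 0 counts in all 16 libraries. A few genes are not reported here.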

Additional observations from a re-analysis of the deposited data

Results flagged for a closer look

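In 26 of 320 groups of 4 libraries checked (8.12%), over the 30 summed gene lists and the genes named for an effect or fixed by name (genes named only as members of a list were not checked), the highest or lowest library stood apart from the rest by more than Dixon's 95% limit. Chance alone gives about 1 in 20 such groups.

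At 2 weeks with BF BSHlow, library 4 had 1491 summed CPM of type I interferon-stimulated genes (next 663.1) and 114 CPM of Ddx60 (next 32.9). Library 3 of that group had 341.7 summed CPM of adipocyte genes (next 36.32), 225 CPM of Car12 (next 120), 1.57 CPM of Nos2 (next 0.711), and the lowest Fhl1 (101 CPM, next 160) and Mfap3l (69.6 CPM, next 133).

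At 2 weeks with BF BSHhigh, library 2 had 33.5 CPM of Gal3st2c (next 12.5), 9.83 CPM of St3gal5 (next 2.74) and 18660 summed CPM of antibacterial and oxidant defense genes (next 15550). It also had the lowest sum of enteroendocrine and tuft cell genes, 416.6 CPM (next 516.6). Library 3 had 40 CPM of A4gnt (next 19.4), 0.877 CPM of Cadm3 (next 0.291) and 74.3 summed CPM of adipocyte genes (next 33.68).

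At 12 weeks with BF BSHlow, library 4 had 4226 summed CPM of fatty acid oxidation genes (next 2131) and 2413 of glucocorticoid-responsive genes (next 1348). Library 3 had 9.56 CPM of Mal (next 3.73), 32.1 CPM of Mfap3l (next 12.8), the lowest Ifi27l2b (97.7 CPM, next 105) and 701.8 summed CPM of exocrine pancreas genes (next 418.5).

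At 12 weeks with BF BSHhigh, library 3 had 543.5 summed CPM of B cell genes (next 111.3), the lowest sum of enteric neuron and glia genes, 48.47 CPM (next 83.31), and 0.0562 CPM of Slc26a1, which was at 0 in the other libraries. Library 1 had 13.5 CPM of Car12 (next 6.60). Library 2 had 23.1 CPM of Fxyd4 (next 14.7) and 0.512 CPM of Odf3b (next 0.339). The causes were not tested.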

How the results depend on the processing

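The number of genes called depended on the test. For the difference between the times, edgeR's quasi-likelihood test called 0, DESeq2 26 (18 higher, 8 lower), the likelihood-ratio test of edgeR 26 and limma-voom 0, and with libraries left out the count was 0 to 4 (4 without BF BSHhigh library 3 at 2 weeks: Ptpro, A4gnt, Gpr20 and Gm43305). For 2 weeks (2 genes), DESeq2 called 32, the likelihood-ratio test 33, limma-voom 1, upper-quartile scaling 0, library size alone 0, no filter on low counts 7, 10 counts in every library 4, the robust fit 0, a fit of that time's 8 libraries 1, and leaving out libraries 0 to 46, the 46 without BF BSHlow library 4 at 2 weeks (21 in the interferon lists, both original calls kept), 4 without BF BSHlow library 3 or 4 at 12 weeks, 1 without BF BSHhigh library 2 at 2 weeks, 2 without BF BSHhigh library 4 at 2 weeks and 0 without any other. For 12 weeks (1 gene), DESeq2 called 46, the likelihood-ratio test 38, RLE and upper-quartile scaling 0, library size alone 3, no filter 3, a fit of that time's 8 libraries 0, and leaving out libraries 0 to 7, the 7 without BF BSHhigh library 3 at 2 weeks, 4 without BF BSHlow library 1 at 12 weeks, 1 without BF BSHlow library 2 or 3 at 12 weeks or BF BSHhigh library 2 at 2 weeks, and 0 without any other. For the average (0 genes), DESeq2 called 15, the likelihood-ratio test 29, no filter 2, and leaving out libraries 0 to 35, the 35 without BF BSHlow library 4 and 1 (Ly6g) without BF BSHhigh library 2, both at 2 weeks. Some of these small counts held other genes than the main fit called. At 2 weeks, Casp14 and Atp12a were the 2 calls without BF BSHhigh library 4 at 2 weeks. St3gal4 was the call of the fit of the 8 libraries of 2 weeks. At 12 weeks, Gm17322 was the call without BF BSHlow library 3 at 12 weeks, and Zbtb16 that of limma-voom. In the same direction at both times, DESeq2 and the likelihood-ratio test called 1 each, Nos2. BF BSHhigh libraries 1 and 3 at 2 weeks left out together, chosen after seeing the data, gave 0 calls at each time. The cause was not tested.

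Of 2940 values of the difference over 106 named genes and the alternatives, 2863 kept direction and side of the threshold, 37 passed it anew and 40 changed sign, in 12 genes. With library size alone Ddx60 became 0.0784 and Gstm1 0.00474. Without BF BSHhigh libraries 1 and 3 at 2 weeks Gstm1 became 0.0945, Hoxa13 0.657 and Hoxb13 0.131. With single libraries left out the difference crossed 0 for Axin2 (-0.0915 to 0.106), Ccl28 (-0.0139 to 0.249), Ddx60 (-0.842 to 0.308), Gstm1 (-0.164 to 0.0581), Mylk (-0.689 to 0.00484), Nos2 (-0.5495 to 0.1555), Pim3 (-0.224 to 0.0826), Ppy (-0.163 to 0.656), Slc25a23 (-0.0876 to 0.23) and Zbp1 (-0.412 to 0.596). The Ccl28 value in log2 CPM stayed between 0.000129 and 0.276, with library size alone 0.173 (exact permutation p = 0.521).

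The replicate numbers did not pair the samples: deviations of same-numbered libraries correlated at -0.172 to 0.286, and not every library matched its own number best. With the replicate block, edgeR called 1 gene for the difference (Reg4, 3.06, adjusted p = 0.0457), 1 at 2 weeks, 0 at 12 weeks and 0 for the average, and of the 22 cholesterol genes 9 for the difference and 16 at 12 weeks had an unadjusted p under 0.05.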
